A study of Mus musculus with 2 samples.

Results

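The respiratory chain genes, those for the subunits of the 5 complexes of oxidative phosphorylation and for the assembly factors of complex I, were followed in the cells of a mouse brain tumour. Members were taken by symbol: names beginning with Nduf, Uqcr or Atp5, Sdha to Sdhd, Cox4 to Cox8, and the protein-coding genes of the mitochondrial genome (mt-). The rule found 106 of 31053 gene features, 93 encoded in the nucleus and 13 in mitochondria. Complex I had 51 members, complex II 4, complex III 9, complex IV 23 (Ndufa4, now placed there, included) and ATP synthase, complex V, 18; Atp5s, named for ATP synthase, was kept apart. The study deposited 2 droplet single-cell RNA libraries, replicates 1 and 2, of brain tumour in C57BL/6 mice bearing mutant IDH1 (mIDH1) at the symptomatic stage. Both libraries are of this 1 group, so classes of cells were compared inside the same libraries and no tumour without the mutation was at hand. The labels used here give neither the age of the mice nor whether the libraries came from separate animals, so every p-value below measures only how class differences vary between these libraries.

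Oxidative phosphorylation passes electrons from NADH (complex I) or succinate (complex II) through coenzyme Q, complex III and cytochrome c to oxygen at complex IV, and ATP synthase uses the proton gradient that results. Complex II is made wholly from nuclear genes, while the other complexes join nuclear subunits to a core encoded in mitochondrial DNA: ND subunits in complex I, cytochrome b in complex III, CO subunits in complex IV, and ATP6 and ATP8 in complex V. The mitochondrial genes are transcribed as long precursors and cut into single RNAs, so their amounts are set by other steps than those of the nuclear genes. Mutant IDH1 makes 2-hydroxyglutarate from an intermediate of central metabolism, and macrophages are known to change their use of respiration with their state of activation.

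The cells used had 200 or more genes and no more than 15% of their counted molecules (UMIs) from mt- genes. Of the barcodes, 1740 of 2704 in replicate 1 and 1446 of 2266 in replicate 2 passed; the removed ones had a median of 86.6% and 85.3% mt- UMIs. Each class was set by genes outside the members: tumour cells by Nras at 1000 CPM (UMIs of a gene per 1000000 UMIs) or more, macrophages/microglia by at least 5 C1qa UMIs, monocytes by Ly6c2 and at least 5 Lyz2 UMIs, neutrophils by at least 10 UMIs of S100a8 and S100a9, basophils by Mcpt8, dendritic cells by Ccr7 and T cells by Cd3e. The 2618 cells that met 1 gate were used: 1816 tumour cells, 441 macrophages/microglia, 64 monocytes, 31 neutrophils, 138 basophils, 76 dendritic cells and 52 T cells. A further 237 cells met several gates, 134 of them those of tumour cells and basophils, and were left out. In every class all listed markers of its own type reached a mean of 10 CPM. In neutrophils, Ngp (0 and 26.6 CPM) and Ltf (30.4 and 0 CPM) lay under the floor given below for that class. Some classes also carried markers of another. The 6 tumour markers (Sox2, Nes, Tnc, Sox11, Tubb3, Cdkn2a) summed to 699 and 686 CPM in tumour cells, to 254 and 367 CPM in basophils, with all 6 detected, to 152 and 105 CPM in dendritic cells and to 16.6 and 10.99 CPM in macrophages/microglia. Of the basophil UMIs, 33.3% and 46.7% came from 2 and 3 deep cells with at least 5 UMIs of those markers. Neutrophils held only 70582 UMIs in all, against 92500165 in tumour cells, so a gene of 42.5 CPM (3 counts) is the least that could be told from absence there. Monocytes carried all 8 macrophage/microglia markers, at a sum of 5754 and 1802 CPM, and dendritic cells carried T cell markers at 386 and 18.1 CPM and B cell markers at 204 and 315 CPM. The libraries shared 10 barcodes.

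The summed levels of the nuclear and of the mitochondrial members ordered the classes differently. The nuclear members summed to 22834 and 22067 CPM in T cells of replicates 1 and 2, 22202 and 21741 CPM in tumour cells and 21994 and 21582 CPM in monocytes. The range of tumour cells overlapped those of T cells and of monocytes, and T cells lay above monocytes in both libraries. Macrophages/microglia followed at 18059 and 17782 CPM. Basophils had 16809 and 16433 CPM and dendritic cells 15937 and 17709 CPM, with overlapping ranges, and neutrophils were lowest at 8840 and 9160 CPM. The mitochondrial members summed to 43207 and 44904 CPM in macrophages/microglia, above all other classes in both libraries. T cells had 37093 and 40534 CPM. Tumour cells had 34558 and 36634 CPM and monocytes 32876 and 35570 CPM, which overlapped. Dendritic cells had 28330 and 25025 CPM, basophils 25172 and 26730 CPM and neutrophils 17041 and 20710 CPM. Tumour cells and T cells thus stood at the top for the nuclear genes, and macrophages/microglia for the mitochondrial ones. The cap on mt- UMIs bounds the second sum. In neutrophils 1 cell with 11.2% mt- UMIs supplied 57.9% of the mitochondrial member UMIs of replicate 2, and without that cell the sum was 9757 CPM.

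**Figure D1:**
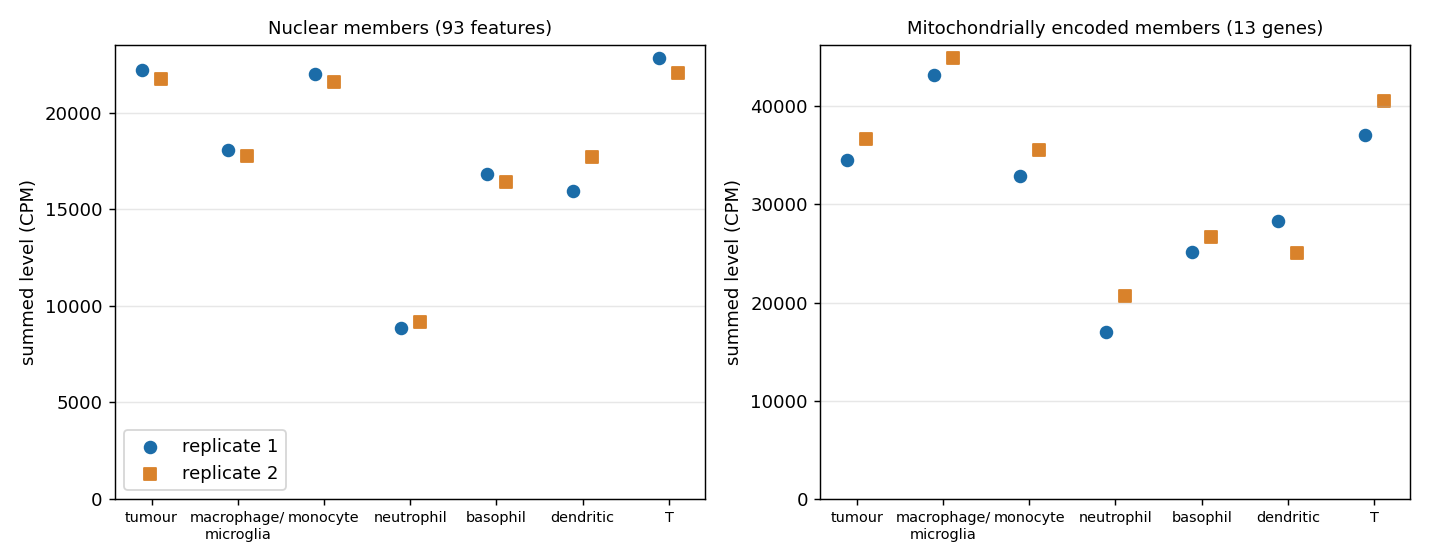
Summed CPM (y axes, from 0) of the nuclear members (left) and the mitochondrially encoded members (right) by cell class (x axis); circles are replicate 1 and squares replicate 2. T cells, tumour cells and monocytes lie at 21582 to 22834 CPM for nuclear members, while macrophages/microglia lead the mitochondrial members at 43207 and 44904 CPM.

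Per nuclear UMI, macrophages/microglia carried the most mitochondrial UMIs. Their ratio over all members was 2.39 and 2.53 in the libraries, against 1.56 and 1.69 in tumour cells and 1.41 to 2.26 in the other classes. The contrast was widest in complex I, whose ratio was 1.23 and 1.39 in macrophages/microglia and 0.507 and 0.588 in tumour cells, the lowest of the classes in both libraries. Basophils had 0.593 and 0.655 and dendritic cells 0.836 and 0.653. For complex IV the ratio was 4.42 and 4.595 in macrophages/microglia and 2.64 to 3.41 in the others, tumour cells lying inside that range. For complex V it was 1.92 and 1.998 in macrophages/microglia and 1.54 and 1.63 in tumour cells. For complex III, macrophages/microglia had 2.56 and 2.58, tumour cells 1.65 and 1.75, and neutrophils 2.56 and 4.09 from few counts. Against the mean log2 ratio of the 6 immune classes, tumour cells differed by -0.67 and -0.55 for complex I, by -0.05 and -0.10 for complex III, by -0.13 and -0.04 for complex IV and by 0.05 and 0.06 for complex V. Over all members the difference was -0.18 and -0.13, with a mean of -0.16 (SD 0.03, n = 2), and no test was made of it. With a cap of 10% mt- UMIs it was -0.18 and 0.08, so the sign over all members depends on the cap in replicate 2. For complex I the difference remained below 0, at -0.67 and -0.29. In replicate 2 this cap removes 10 tumour cells, 16 macrophages/microglia, 2 monocytes and 1 neutrophil, the cell with 11.2% mt- UMIs. The part of that neutrophil in the change of sign was not tested. The complex I genes made up 16.4% and 17.5% of the mitochondrial member UMIs in macrophages/microglia and 10.3% and 10.99% in tumour cells.

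**Figure D2:**
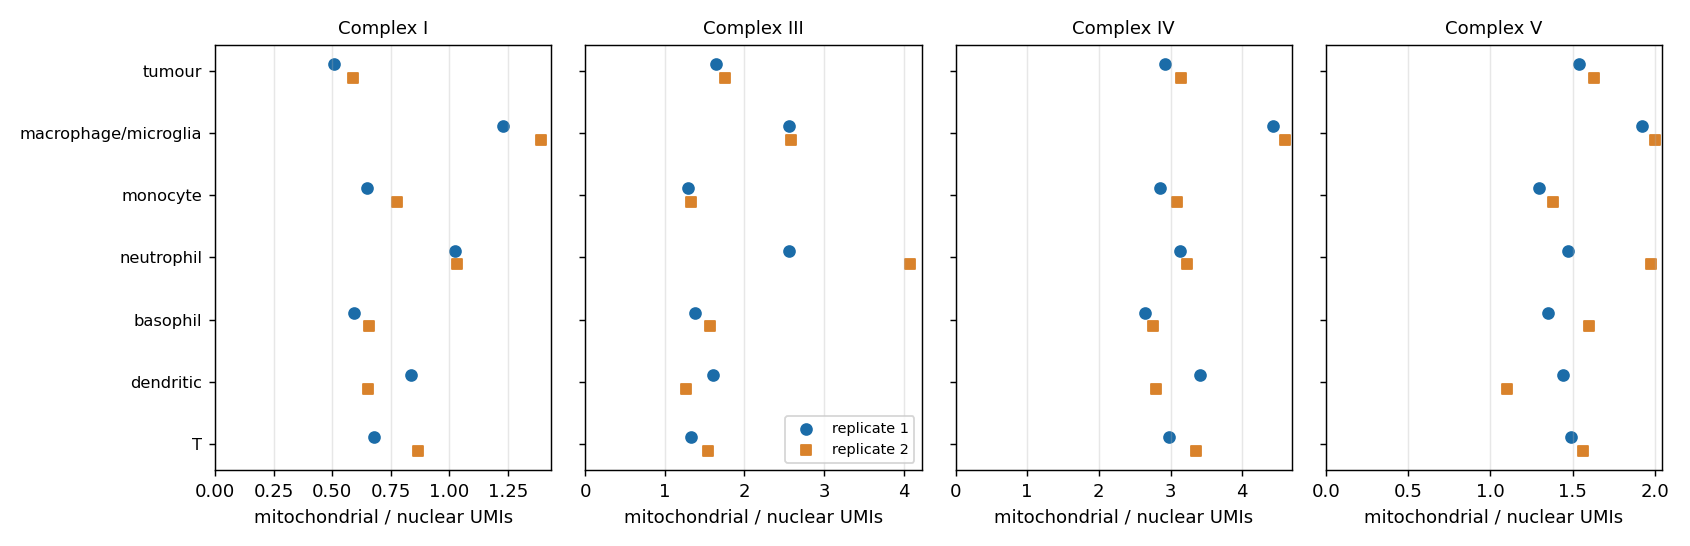
Ratio of mitochondrially encoded to nuclear member UMIs (x axes, from 0) within complexes I, III, IV and V by cell class (y axis); circles are replicate 1 and squares replicate 2. In complex I, macrophages/microglia lie at 1.23 and 1.39 and tumour cells at 0.507 and 0.588.

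Tumour cells stood out from the immune classes by single subunits and assembly factors of complex I and by the catalytic subunit of ATP synthase. Ndufa12, an accessory subunit of complex I, was at 323 and 317 CPM in tumour cells and at 80.2 to 170 CPM in the immune classes other than neutrophils, where it had no count. Its paralog Ndufaf2, an assembly factor that precedes it in the complex, was at 66.4 and 66.2 CPM against 5.53 to 36.2 CPM. Ndufaf4, another assembly factor, was at 74.8 and 76.1 CPM against 8.29 to 53.0 CPM. Ndufaf6, an assembly factor too, was at 26.0 and 28.2 CPM against 0 to 14.6 CPM. For each of these genes the tumour values lay above those of all immune classes in both libraries. Ndufab1, the mitochondrial acyl carrier protein that is also a complex I subunit, was at 335 and 311 CPM against 53.1 to 175 CPM. Ndufaf2 and Ndufab1 overlap exons of genes on the opposite strand (B230220B15Rik and Gm44986), whose reads cannot be told apart where strand is not used. Atp5b, the catalytic beta subunit, was at 902 and 917 CPM against 133 to 738 CPM, the highest immune value being that of dendritic cells in replicate 2. The 8 complex I assembly factors together summed to 300 and 299 CPM in tumour cells and to 138 to 239 CPM in the immune classes other than neutrophils. Uqcrh, the hinge protein of complex III, was lower in tumour cells than in every immune class but neutrophils. It was at 292 and 283 CPM in tumour cells, 358 and 377 CPM in macrophages/microglia, 630 and 633 CPM in monocytes, 606 and 486 CPM in basophils, 531 and 514 CPM in dendritic cells, 912 and 853 CPM in T cells, and 91.1 and 159 CPM in neutrophils. Ndufv3, a small accessory subunit of complex I, was at 62.9 and 60.7 CPM in tumour cells and, neutrophils and basophils aside, at 101 to 186 CPM in the immune classes. Basophils had 87.2 and 55.9 CPM of it and so overlapped the tumour cells.

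Genes were called in an edgeR quasi-likelihood test on the 14 class sums at a Benjamini-Hochberg adjusted p under 0.05 and a fold of at least 2; 93 of the 106 members passed the filter on low counts. Tumour cells were set against the average log2 level over the 6 immune classes. There 48 of the 93 (51.6%) rose, where 43.9% of the 6873 genes tested did. No member fell, where 9.5% of all genes did, and none had an unadjusted p under 0.05 in that direction. DESeq2 called 31 (33.3%) higher and none lower, with 1 lower at an unadjusted p under 0.05. Among all genes DESeq2 called 2352 of 6873 higher, a share slightly above that of the members, and 1341 lower. The median log2 fold change of the 80 nuclear members tested was 1.09 and that of all genes 0.93. The neutrophil sums are shallow, and many genes have no count there. With neutrophils left out, 5 of 95 members (5.26%) rose and 2 (2.11%) fell, where 21.4% and 16.6% of all genes did, and the median of the nuclear members was 0.30 against 0.10 for all genes. The share of members called was then below that of all genes in both directions. With cells of several gates kept, 3 of 98 rose (Ndufaf2, Ndufaf4 and Ndufaf5) and 1 fell (Cox6a2), where 17.1% of all genes rose and 17.1% fell. Without neutrophils, the 5 that rose were all genes of complex I: Ndufaf6 (log2 fold change 2.33), Ndufaf2 (1.68, SE 0.17, adjusted p = 1.21e-08), Ndufaf4 (1.56, SE 0.17, adjusted p = 3.45e-08), Ndufa12 (1.38, SE 0.10, adjusted p = 6.65e-11) and Ndufab1 (1.06, SE 0.12, adjusted p = 1.19e-07). Ndufaf6 passed the low-count filter of that fit only through its level in tumour cells, so its call is no separate support. The 2 that fell were Ndufv3 (-1.08, SE 0.12, adjusted p = 4.95e-08) and Uqcrh (-1.01, SE 0.15, adjusted p = 3.32e-06), which was at -0.05 with all classes. Atp5b, at 0.95, lay just below the fold required. Of the 6 complex I assembly factors tested without neutrophils, 3 were called higher and 0 lower, with log2 fold changes from -0.87 to 2.33. With all classes in the fit, the largest rises among called members were those of Ndufa12 (3.97), Ndufaf2 (3.84), Ndufaf4 (3.77) and Ndufb6 (3.34), all without a count in neutrophils, so their size depends on how a fit treats 0.

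By complex, the tumour medians without neutrophils were 0.31 for the nuclear genes of complex I (5 higher and 1 lower of 42 tested), 0.20 for complex II, 0.33 for complex III (1 lower of 8), 0.11 for complex IV and 0.30 for complex V. Those of the mitochondrial genes were -0.23 for complex I, where 1 of the 7 was above 0, 0.26 for mt-Cytb, 0.07 for complex IV and 0.36 for complex V. None of the mitochondrial genes was called in that fit. With all classes, mt-Atp6 (1.03), mt-Atp8 (1.38) and mt-Nd6 (2.94) were called higher. mt-Nd6, the only protein-coding gene on the other strand of the mitochondrial genome (M:13552-14070, minus strand), was at 26.8 and 31.9 CPM in tumour cells, the least abundant mitochondrial gene, and had no count in neutrophils. Among the succinate dehydrogenase genes of complex II, Sdhb was at 174 and 164 CPM in tumour cells and 119 to 213 CPM in the immune classes other than neutrophils, Sdha at 74.6 and 75.8 against 55.7 to 124 CPM, and Sdhd at 143 and 141 against 84.8 to 148 CPM. Sdhc, a membrane anchor, was at 70.7 and 72.4 CPM against 18.1 to 62.5 CPM, above all immune values. With all classes Sdhb (1.01), Sdhc (1.29) and Sdhd (1.01) were called higher, and without neutrophils none of the 4 was.

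**Figure D3:**
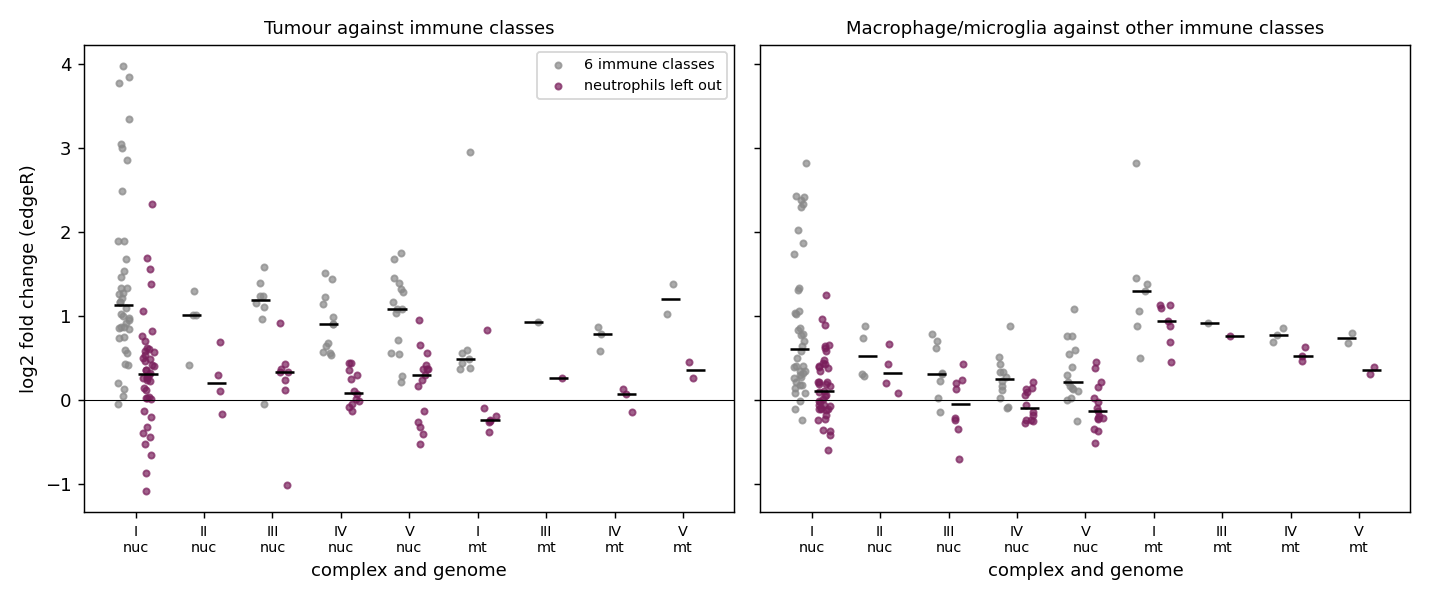
log2 fold change from edgeR (y axis) of each tested member, grouped by complex and genome (x axis), for tumour cells against immune classes (left) and macrophages/microglia against the other immune classes (right); grey points are the fit with all 7 classes, purple points that without neutrophils, bars are medians of the points shown, and Cox6a2 is left out. Tumour medians of nuclear complex I fall from 1.13 to 0.31 without neutrophils, and in macrophages/microglia the mitochondrial complex I genes have the highest median in both fits (1.30 and 0.94).

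Promoter sequence is shown for Ndufaf4 and Atp5b, higher in tumour cells, and for Uqcrh, lower than in most immune classes, because they differ in the motifs known from respiratory chain promoters. Of the nuclear members, 74 matched RefSeq's promoter table (GRCm38.p6), and the 250 bases before each gene's start were searched on both strands. Capitals mark the motif of NRF1, a regulator of nuclear respiratory genes, CCGGAAG (the ETS core that GABP recognises), AAGATGGC (YY1) and CCAAT, none of which overlapped another in these windows. Bases past the gene start that GENCODE M21 gives are not shown.
Ndufaf4, chr4:24897833-24898082, plus strand: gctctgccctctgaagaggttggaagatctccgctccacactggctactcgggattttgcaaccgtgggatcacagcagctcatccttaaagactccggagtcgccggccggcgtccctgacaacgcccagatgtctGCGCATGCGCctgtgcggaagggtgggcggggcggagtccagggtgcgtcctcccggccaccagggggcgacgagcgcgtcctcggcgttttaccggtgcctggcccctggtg
Atp5b, chr10:128083057-128083272, plus strand: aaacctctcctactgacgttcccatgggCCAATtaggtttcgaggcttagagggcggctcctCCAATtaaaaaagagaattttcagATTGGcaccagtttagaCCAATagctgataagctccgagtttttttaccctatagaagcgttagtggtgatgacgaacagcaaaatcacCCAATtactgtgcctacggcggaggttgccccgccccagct
Uqcrh, chr4:116075072-116075320, minus strand: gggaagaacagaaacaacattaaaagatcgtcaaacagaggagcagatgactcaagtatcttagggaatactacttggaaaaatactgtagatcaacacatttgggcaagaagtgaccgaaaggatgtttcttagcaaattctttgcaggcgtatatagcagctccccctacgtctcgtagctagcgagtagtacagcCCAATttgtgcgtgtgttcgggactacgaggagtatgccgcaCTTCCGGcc
The Ndufaf4 window held an NRF1 motif 113 bases before the RefSeq start. The Atp5b window held CCAAT 5 times, in either orientation, and neither of the NRF1 and GABP motifs. The Uqcrh window held CCAAT and the GABP motif in its reverse orientation, 10 bases before the start. The NRF1 motif was found in 14 of the 74 member promoters (18.9%) and in 4.23% of all 27025, the GABP motif in 14 (18.9%) and 7.83%, CCAAT in 33 (44.6%) and 37.5%, and the YY1 motif in 1 (1.35%) and 1.83%. These matches describe letters and were not tested against the levels.

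Macrophages/microglia differed from the other immune classes chiefly in the mitochondrially encoded ND genes. mt-Nd1 was at 1372 and 1604 CPM in macrophages/microglia, 748 and 876 CPM in monocytes, 936 and 1012 CPM in T cells and 319 to 654 CPM in the rest. mt-Nd2 was at 2219 and 2458 CPM against 478 to 1664 CPM, and mt-Nd4 at 2311 and 2464 CPM against 911 to 1871 CPM. mt-Nd3 was at 603 and 729 CPM against 187 to 453 CPM. For each of these 4 genes both macrophage values exceeded every other immune value. The abundant genes of other complexes stood less far above. mt-Co1 was at 6304 and 6587 CPM, below the 6716 CPM of T cells in replicate 2, and mt-Atp6 was at 9760 and 9895 CPM, below T cells in both libraries. mt-Nd5, with 292 and 318 CPM, overlapped monocytes (339 and 301 CPM) and neutrophils (243 and 292 CPM). mt-Nd4l, at 257 and 280 CPM against 122 to 244 CPM, missed the fold required. All 3 mt-Co genes, mt-Cytb, mt-Atp6 and mt-Atp8 missed the fold required.

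In the edgeR test against the mean of the other 5 immune classes, 18 of 93 members (19.4%) rose in macrophages/microglia, where 21.1% of all genes did. No member fell, where 5.12% of all genes did, and none had an unadjusted p under 0.05 in that direction. DESeq2 called 16 members higher and none lower, where it called 1460 of 6873 genes higher and 728 lower. Without neutrophils 4 of 95 (4.21%) rose, where 16.3% of all genes did, and no member fell (8.97% of all genes did), 8 having an unadjusted p under 0.05 in that direction. The 4 were mt-Nd2 (log2 fold change 1.13, SE 0.13, adjusted p = 2.82e-07), mt-Nd1 (1.13, SE 0.14, adjusted p = 6.42e-07), mt-Nd3 (1.09, SE 0.15, adjusted p = 2.18e-06) and Cox6a2. With all classes these genes were at 1.37, 1.45 and 1.30, and mt-Nd4 (1.06, adjusted p = 1.61e-07 by edgeR), Atp5g1 (1.08) and mt-Nd6 (2.81) were called too, the last with no count in neutrophils. Ndufa12 (2.82) and Ndufa11 (2.42) were called only with neutrophils in the fit, and Ndufa11 was at -0.11 without them. Of the macrophages/microglia, 124 of 441 had no count of Malat1, an abundant nuclear RNA. The ratio of mitochondrial to nuclear member UMIs was 2.17 and 2.27 in those and 2.43 and 2.62 in the cells with Malat1. Their complex I share of mitochondrial UMIs was 14.2% and 15.9%, and that of the cells with Malat1 was 16.7% and 18.05%, so the high share was as large without them. The 124 cells had a median of 3794 and 5477 UMIs per cell against 10087 and 10470.

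Among the paired isoforms, Cox6a2 was counted mainly in macrophages/microglia. Cox6a2 and Cox6a1 encode alternative forms of the same complex IV subunit, the first known from heart and skeletal muscle and the second from most other tissues. Cox6a2 was at 73.1 and 60.4 CPM in macrophages/microglia, 2.29 and 2.43 CPM in tumour cells and 0 and 2.43 CPM in basophils, and it had no count in monocytes, neutrophils, dendritic cells and T cells. It made 159 of 489 UMIs of the pair in replicate 1 and 132 of 495 in replicate 2 of the macrophages/microglia, 29.6% in all (exact 95% interval 26.7% to 32.5%). In tumour cells its share was 1.35% (1.18% to 1.54%), and at 0 counts the upper limits were 3.69% in monocytes, 4.74% in dendritic cells, 6.85% in T cells and 52.2% in neutrophils; these intervals cover counting error only. Macrophages/microglia held 291 counts and the other 5 immune classes together 1, a ratio per UMI of 158 with an exact interval of 28.1 to 6255. The low-count filter of the edgeR fit lay at 31.3 CPM, which Cox6a2 reached only in macrophages/microglia. Its edgeR call is therefore no separate support. The ratio to tumour cells was 28.3 (23.7 to 33.9). Cox6a2 was counted in 140 of the 441 macrophages/microglia (31.7%) and in 115 of the 1816 tumour cells (6.33%). The 8 macrophage/microglia markers summed to 73609 and 80198 CPM in macrophages/microglia and to 19.2 and 23.3 CPM in tumour cells; the part of free RNA in the tumour value was not tested. Cox6a1 was at 152 and 166 CPM in macrophages/microglia and at 131 to 187 CPM in the other classes apart from neutrophils, which the macrophage values overlapped.

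The counting is not stated to use strand, and Cox6a2 (chr7:128205435-128206387, minus strand, GENCODE M21 on GRCm38) overlaps exons of Itgad on the plus strand. Itgad had 1 count in all classes together, in macrophages/microglia, against 510 of Cox6a2. Within macrophages/microglia, Cox6a2 was at 72.9 and 63.8 CPM in cells with Malat1 and at 74.6 and 46.7 CPM in cells without it. Among the cells with Malat1, those that also had a count of the microglial receptor gene Cx3cr1 (167 and 138 cells) were at 74.4 and 64.4 CPM. Those without Cx3cr1 (7 and 5 cells) held 0 and 1 Cox6a2 UMIs, too few to compare. Leaving out neutrophils, tumour-marker cells or Malat1-negative cells, keeping cells of several gates, or another cap on mt- UMIs left Cox6a2 called in macrophages/microglia.

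**Figure D4:**
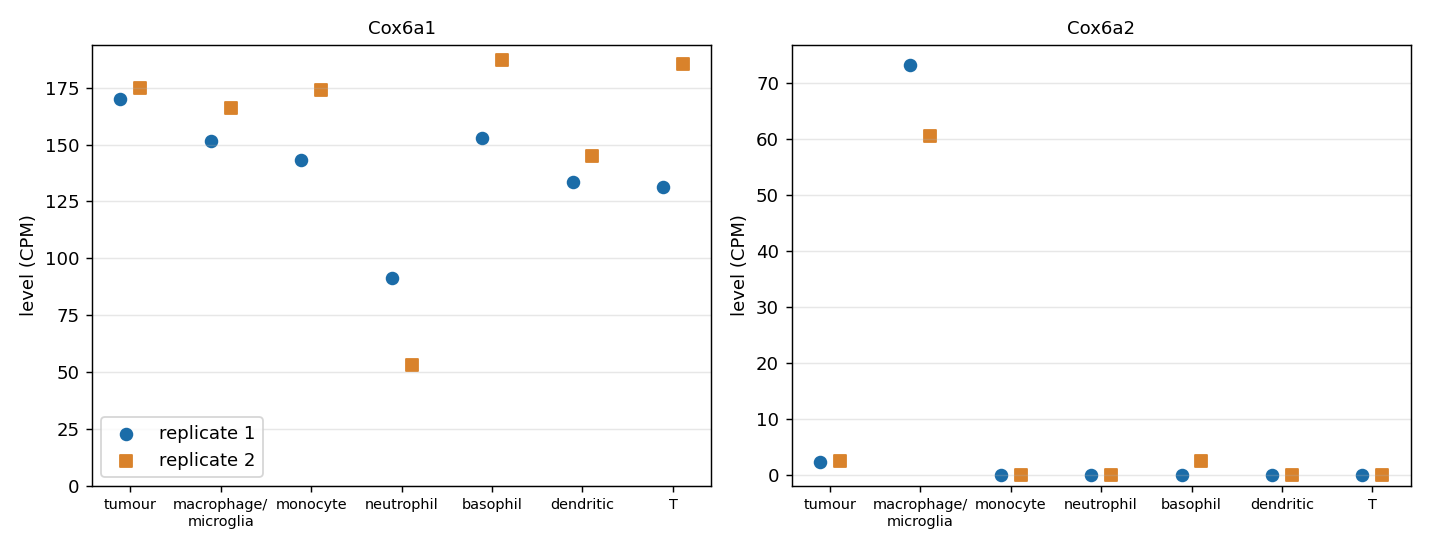
Levels in CPM (y axes) of Cox6a1 (left) and Cox6a2 (right) by cell class (x axis); circles are replicate 1 and squares replicate 2. Cox6a2 is at 73.1 and 60.4 CPM in macrophages/microglia and at most 2.43 CPM elsewhere, while Cox6a1 is at 131 to 187 CPM in all classes but neutrophils.

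The promoter of Cox6a1 is printed because this widely used isoform carries the NRF1 motif more than once, marked in capitals as above with CCAAT.
Cox6a1, chr5:115348982-115349208, minus strand: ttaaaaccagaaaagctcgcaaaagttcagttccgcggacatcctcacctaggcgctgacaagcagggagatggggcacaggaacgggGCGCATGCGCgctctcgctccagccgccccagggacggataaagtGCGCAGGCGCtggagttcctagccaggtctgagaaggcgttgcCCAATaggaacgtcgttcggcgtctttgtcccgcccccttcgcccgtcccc
The NRF1 motifs begin 162 and 117 bases before the RefSeq start, and CCAAT 74 bases before it. A GABP match lies in the bases before the RefSeq start that are not shown.

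Other tissue isoforms were rare or absent. Cox7b2, Cox8b and Cox8c, known from testis or muscle, had no count in any class, where Cox8a had 78645 counts in tumour cells. Cox4i2, known from lung, had 9 counts in macrophages/microglia (0.313% of the Cox4i pair) and 3 in tumour cells. Cox7a1, known from muscle and brown fat, had 69 counts in tumour cells and 7 in macrophages/microglia, 0.211% and 0.557% of its pair. Ndufa4l2, the hypoxia-induced paralog of Ndufa4, had 15 counts in tumour cells beside 40256 of Ndufa4. Cox6b2, known from testis, made 4.96% (exact interval 2.91% to 7.82%) of its pair in monocytes, 3.85% and 5.63% in the libraries, 2.93% (1.08% to 6.26%) in dendritic cells, 0.309% in tumour cells and 0.607% in macrophages/microglia. The intervals of monocytes and dendritic cells overlapped. The c-ring subunit of ATP synthase has 3 genes for 1 mature protein. Atp5g2 gave the largest share of the 3 in most classes. It gave 52.4% ± 0.10 (SD, n = 2) of their UMIs in tumour cells, 53.8% ± 0.95 in macrophages/microglia and 53.8% ± 0.16 in monocytes, followed by Atp5g1 at 28.9%, 29.4% and 30.6% and Atp5g3 at 18.7%, 16.8% and 15.6%. In dendritic cells Atp5g2 gave 62.3% ± 0.78 and Atp5g1 20.8% ± 3.77, from 226 and 277 counts of the 3 genes. In basophils Atp5g3 varied between the libraries, at 19.3% and 30.1%, and neutrophils had only 10 and 2 counts. By mean CPM over the 14 class sums, the most abundant nuclear member of complex IV was Cox8a, at 846 and 855 CPM in tumour cells and 638 to 1168 CPM in the others. Those of the other complexes were Atp5e (430 and 451 CPM in tumour cells), Uqcrh, Ndufa13 (400 and 403 CPM) and Sdhb. In tumour cells alone Atp5b exceeded Atp5e, and Uqcrq, at 600 and 594 CPM, exceeded Uqcrh. CPM is not per length, so levels of different genes are not ranked as molecules.

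Many members were low in neutrophils. Cox5a, which joins the complex IV core early, was at 60.8 and 106 CPM in neutrophils and at 365 to 603 CPM in the other immune classes. Atp5g2 was at 152 and 26.6 CPM against 287 to 631 CPM, and Uqcrh at 91.1 and 159 CPM against 358 to 912 CPM. All 3 were below every other immune value in both libraries. Cox8a, at 638 and 1168 CPM, and Atp5l, a membrane subunit of ATP synthase, at 334 and 637 CPM, overlapped the other classes. Against the other 5 immune classes 51 of 93 members (54.8%) fell, where 8.5% of all genes did. No member rose in neutrophils, where 7.97% of all genes did, and none had an unadjusted p under 0.05 in that direction. DESeq2 called 36 members lower and none higher, where it called 475 of 6873 genes lower and 612 higher. A call needs counts as well as a fold, and the part of abundance in these shares was not tested. The median of the nuclear members was -1.75, and that of all genes was -1.33. In log2 CPM of replicate 1 alone they were -1.60 and -1.83, and of replicate 2 alone -2.35 and -2.25. The 9 members without a count were then set to their bound against the pooled other immune cells. Ndufaf2 and Ndufaf4, too low in those cells for a bound, were set to no change. The nuclear median was then -1.55. No such bound was set for all genes, so -1.55 has no like value beside it. Among the largest falls in the fit were those of Ndufa11, Ndufa12 and Ndufb6, each without a count; against the pooled other immune cells they were at least 3.04-fold, 3.098-fold and 2.07-fold lower. Of the mitochondrial members, 7 of 13 fell, among them mt-Nd1 (-1.65), mt-Atp6 (-1.32), mt-Nd2 (-1.26), mt-Co2 (-1.18), mt-Co3 (-1.08), mt-Nd3 (-1.05) and mt-Co1 (-1.02). The median of the 13 was -1.08, a smaller fall than the -1.33 of all genes. At a cap of 10% mt- UMIs 10 of the 13 fell, where 508 of 6847 genes did. Their median was then -1.59, and that of all genes -1.28. When cells meeting several gates were kept, edgeR called none of 98 members in neutrophils, where 6.16% of all genes rose and 1.29% fell; 1 was higher and 15 lower at an unadjusted p under 0.05.

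T cells, monocytes, basophils and dendritic cells showed few calls. In T cells 8 of 93 (8.60%) rose, where 11.5% of all genes did. Neither edgeR nor DESeq2 called one lower or gave an unadjusted p under 0.05 in that direction, where 5.37% of all genes fell. Uqcrh, at 912 and 853 CPM in T cells and 91.1 to 633 CPM in the other immune classes, rose by 1.20 (SE 0.17, edgeR adjusted p = 9.25e-06), with Ndufa10 (2.77), Ndufa12 (2.71), Ndufa11 (2.68) and Ndufv3 (1.24). Without neutrophils none of 95 was called in T cells by edgeR, where 7.54% of all genes rose and 7.57% fell, 14 being higher at an unadjusted p under 0.05, and Uqcrh was at 0.68 (adjusted p = 0.00436). In monocytes 8 of 93 (8.60%) rose, where 13.5% of all genes did, and neither edgeR nor DESeq2 called one lower (1.86% of all genes fell), with 0 and 1 having an unadjusted p under 0.05 in that direction. Among the 8 were Ndufv1 (2.86), Ndufa11 (2.74) and Ndufb6 (2.57), each without a count in neutrophils. Uqcrfs1, the Rieske iron-sulfur protein of complex III, was another, at 188 and 241 CPM in monocytes against 26.6 to 155 CPM. Without neutrophils monocytes had 1 call, a fall of Ndufaf2 to 8.18 and 5.53 CPM (log2 fold change -2.08, edgeR adjusted p = 0.0112), where 11.2% of all genes rose and 6.81% fell. That call rests on very few counts, the monocyte sums holding 244523 and 361734 UMIs. In basophils 3 of 93 (3.23%) rose, where 20.7% of all genes did, and edgeR called none lower (4.23% of all genes fell), 6 having an unadjusted p under 0.05 in that direction and DESeq2 calling 1 lower. The 3 were Ndufa10 (2.69), Ndufa12 (2.68) and Ndufb6 (2.57). Restricting basophils to at least 5 Mcpt8 UMIs gave no rise and 4 falls (Uqcrq, Atp5o, Ndufb8 and mt-Nd5), where 12% of all genes rose and 4.05% fell. Leaving out neutrophils gave 1 fall, that of Ndufs6 (-1.28), where 19.7% of all genes rose and 6.14% fell. In dendritic cells 3 of 93 (3.23%) rose, where 19.4% of all genes did, and edgeR called none lower (5.73% of all genes fell), 14 having an unadjusted p under 0.05 in that direction and DESeq2 calling none. The 3 were Ndufaf2 (2.75), Ndufv1 (2.63) and Ndufa11 (2.49). Without neutrophils 3 fell instead, Ndufaf8 (-1.11), Ndufb10 (-1.09) and Cox7b (-1.005), where 14.9% of all genes rose and 7.05% fell. With immune cells of at least 5 tumour-marker UMIs left out, 2 of 92 members rose in basophils and none fell. Of all genes 987 of 5893 rose and 208 fell there. The basophil median of the nuclear members was -0.02 in that fit and 0.17 with those cells kept. In dendritic cells 1 of 92 rose and none fell, where 1198 of 5893 genes rose and 442 fell. The part of the tumour-marker RNA in the basophil and dendritic CPM values was not tested.

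Within the tumour cells, respiratory chain RNAs were lower where hypoxia genes were higher. Tumour cells of each library were ranked by the share of their UMIs from 15 hypoxia-induced genes (such as Adm, Vegfa, Car9 and Bnip3) and split into 3 equal groups, each being a range of a score and not a cell type. From the lowest to the highest group, mt-Nd3 went from 356 to 197 CPM in replicate 1 and from 469 to 264 CPM in replicate 2, and mt-Cytb from 4498 to 2692 CPM and from 4692 to 2915 CPM. Among nuclear members, Ndufa5 went from 195 to 119 CPM and from 190 to 110 CPM, and Ndufs8, a core subunit of complex I, from 122 to 79.9 CPM and from 115 to 74.5 CPM. Of the 83 nuclear members at 10 CPM or more, 81 were lower in the highest group in both libraries, with a median log2 difference of -0.33; of the 7445 genes at that level, 54.2% were, with a median of -0.09. Of the 13 mitochondrial members, 12 were lower in both, with a median of -0.53, and mt-Co1 went from 5443 to 5438 CPM and from 5697 to 6000.4 CPM. By complex, the medians were -0.66 for mitochondrial and -0.36 for nuclear complex I, -0.31 for complex II, -0.71 and -0.29 for complex III, -0.40 and -0.25 for complex IV, and -0.41 and -0.32 for complex V. The exceptions were Ndufv3, from 59.8 to 71.1 CPM and from 54.2 to 67.4 CPM, and Cox7a2l, from 270 to 306 CPM and from 278 to 309 CPM. The median depth was 43199.5 and 46527 UMIs per cell in the lowest group and 38479.5 and 43945 in the highest, and its part in these differences was not tested.

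A score of 10 mitotic genes (such as Mki67 and Top2a) went with smaller differences in the other direction. In the highest group 66 of the 83 nuclear members were higher in both libraries, with a median of 0.14, where 46.9% of all genes were, with a median of 0.04. Ndufa5 went from 122 to 180 CPM in replicate 1 and from 123 to 165 CPM in replicate 2, and Atp5g2 from 581 to 750 CPM and from 541 to 737 CPM. Ndufaf4 (82.4 to 63.0 CPM and 88.4 to 63.2 CPM), Ndufv3 and Cox7a2l were lower in the highest group in both libraries. Of the mitochondrial members 7 of 13 were higher in both. The cells of the highest mitotic group were deeper, with a median of 53416.5 and 62858.5 UMIs against 33183.5 and 38169.

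**Figure D5:**
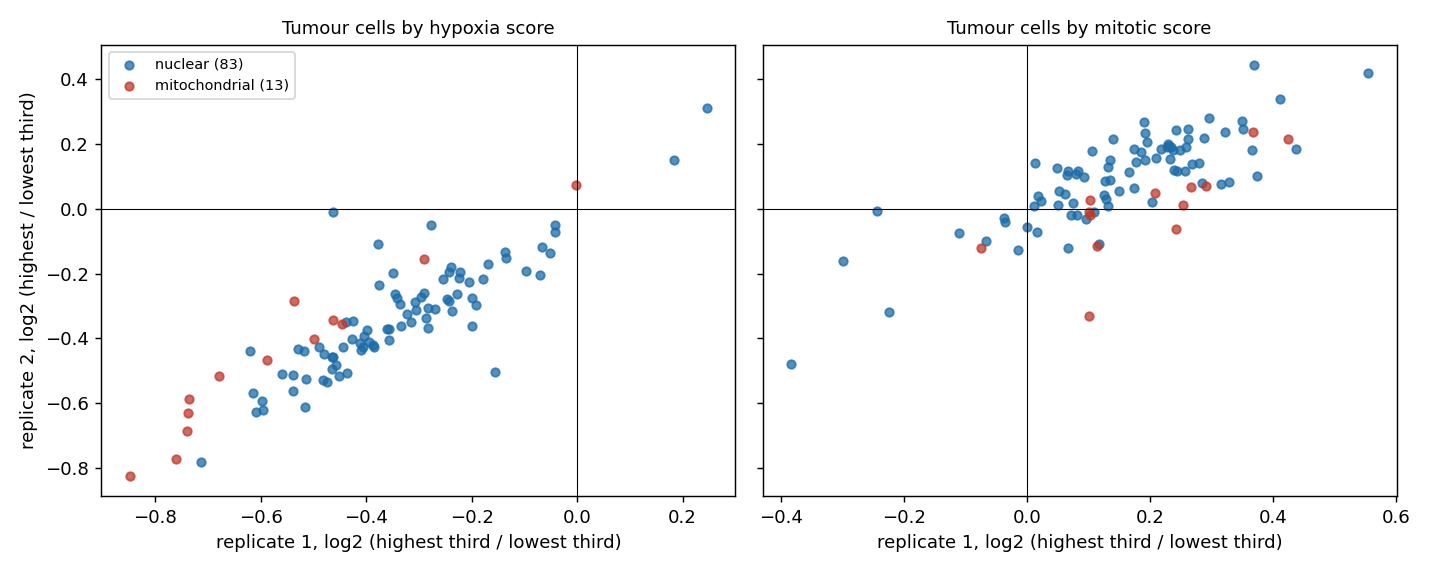
log2 of CPM in the highest over the lowest group of tumour cells by hypoxia score (left) and mitotic score (right), replicate 1 on the x axis and replicate 2 on the y axis; each point is a member at 10 CPM or more, 83 nuclear (blue) and 13 mitochondrial (red). For the hypoxia score all points but Ndufv3, Cox7a2l and mt-Co1 lie below 0 in both libraries.

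Genes that serve the respiratory chain were followed in tumour cells by list, where 21.4% of all genes rose and 16.6% fell without neutrophils. In the edgeR fit without neutrophils, 9 of 13 import and chaperone genes tested rose, none falling, led by Hspa9 (2.37; 492 and 505 CPM in tumour cells, 33.2 to 272 CPM in the immune classes), Hspd1 (2.14) and Hspe1 (1.55), chaperones of the mitochondrial matrix. The list's median was 1.22, where that of all genes was 0.10. Of 75 mitochondrial ribosome genes 23 rose and none fell, with a median of 0.75, the largest rises being Mrps6 (1.86), Mrps27 (1.81) and Mrps22 (1.71). The other lists had shares near or below those of all genes. Of 16 citrate cycle genes 4 rose, led by Idh3a (1.67), a subunit of the NAD-dependent isocitrate dehydrogenase, at 151 and 149 CPM against 0 to 119 CPM; Dlat (1.36) followed, and Ogdh fell (-1.28). Of 9 genes of mitochondrial DNA and RNA upkeep, Pnpt1 (1.18) and Ssbp1 (1.06) rose. Of 10 complex IV assembly genes, Sco2, a copper chaperone, rose (2.02) and Pet100 (-1.60) and Cox20 (-1.13) fell. Of 8 genes for cytochrome c, cytochrome c1 and coenzyme Q, Coq4 rose (1.49). Cyc1, the cytochrome c1 subunit of complex III that the symbol rule leaves out, was at 231 and 230 CPM in tumour cells and at 26.6 to 152 CPM in the immune classes. With all classes in the fit the counts were 13 of 13, 60 of 72, 11 of 16, 7 of 7, 3 higher and 1 lower of 10, and 6 of 7, where 43.9% of all genes rose and 9.5% fell. Among the regulators tested without neutrophils, Myc rose (1.84), and Hif1a (-0.81), Nrf1 (0.29), Gabpb1 (0.15), Yy1 (0.11) and Esrra (-0.01) missed the call; Hif1a was at 106 and 111 CPM in tumour cells and 134 to 239 CPM in the immune classes. Ppargc1a, Ppargc1b, Pprc1 and Gabpa did not pass the filter on low counts. Against the other immune classes, macrophages/microglia had calls without neutrophils in 2 of these lists: Sco2 (1.62) and Coa5 (1.06) of complex IV assembly rose, and 2 of 75 mitochondrial ribosome genes fell.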

How the data were processed

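Single-cell RNA was measured in 2 libraries. Per the labels' protocols, the authors ran Cell Ranger 3.1 with STAR on mm10, and the deposited values are whole-number UMI counts for each gene in each barcode. A step that merges runs at 1 depth is named too, and whether these matrices were thinned for it is not stated; their totals are 63001350 and 58915133 UMIs. Strand use and gene annotation are not given in the sources used here; coordinates come from GENCODE M21, where all 106 member identifiers were found. Reads shared with near-identical copies or overlapping genes (exons on the opposite strand for 32 members) make those members uncertain.

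The counts of each class were added up in each library (14 sums, 32920 to 47641199 UMIs) and fitted with edgeR 4.0.16 in R 4.3.3 (TMM, filterByExpr, quasi-likelihood, replicate block for the library, residual degrees of freedom 6). The library pairs the sums because all classes of a library come from the same sample. Each class was compared with the average log2 level over the others. CPM divides a gene's summed count by all UMIs of that sum, times 1000000. Fits were checked on simulated counts. No doublet caller was run; cells meeting several gates were left out. DESeq2 1.42.0 served as an alternative, with other filters, caps and gates. Python 3.11.15, numpy 2.4.6, scipy 1.17.1 and pandas 2.3.3 were used.

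Named are every mitochondrial gene, Sdha to Sdhd, isoform pairs, the most abundant nuclear member of each complex, the 4 largest called rises and falls per comparison, and for other lists the 3 largest called changes and all regulators; Atp5b, Ndufaf6, Cox5a, Atp5l, Ndufs8, Ndufa5, Cox7a2l, Uqcrfs1, Cyc1 and the members called only without neutrophils were named after their values were seen. Members and lists were chosen with earlier results of these data known. A result that names an item withheld for evaluation is not reported here.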

Additional observations from a re-analysis of the deposited data

How the results depend on the processing

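The number of members called, in the order tumour, macrophage/microglia, monocyte, neutrophil, basophil, dendritic and T, was 48, 18, 8, 51, 3, 3 and 8. The library pairs the class sums; without the replicate block it was 48, 19, 8, 49, 3, 3 and 8. Tumour calls fell to 31 with DESeq2, 20 without Malat1-negative cells, 18 at 500 genes, 19 at mt- caps of 10% and 25%, 15 with mt- genes left out of totals, and 16 with no filter on low counts. Of all genes, 2352 of 6873, 2193 of 6904, 2212 of 7011, 2196 of 6847 and 2203 of 6870 rose in the first 5 of these settings. In the last 2 settings 2060 of 6862 and 3832 of 18944 rose. The members' shares were 33.3%, 21.5%, 19.4%, 20.4%, 20.4%, 18.75% and 15.7%, each below that of all genes, unlike the main fit. The caps gave 0 and 1 dendritic calls, the cap of 25% 13 monocyte calls, and no low-count filter 15 monocyte and 2 T calls. Of all genes, 1146 of 6847 and 1153 of 6870 rose in dendritic cells at the caps. In monocytes 1090 of 6870 rose at the cap of 25%. With no low-count filter 1167 of 18944 rose in monocytes and 698 of 18944 in T cells. Without a fold minimum the counts were 84, 44, 39, 55, 14, 10 and 34. Of all 6873 genes, 3835 then rose and 960 fell in tumour cells, 1846 and 598 in macrophages/microglia, and 1214 and 158 in monocytes. In neutrophils 559 rose and 596 fell, in basophils 1764 and 378, in dendritic cells 1576 and 490, and in T cells 937 and 407. With cells of several gates kept the member counts were 4, 1, 1, 0, 6, 1 and 0, the dendritic call being a fall. The 0 for neutrophils and T cells is edgeR's. Of all 9947 genes, 1297 rose and 680 fell in macrophages/microglia, 1054 and 319 in monocytes, and 1898 and 1771 in basophils. In dendritic cells 1029 rose and 665 fell, and in T cells 556 and 171. Chosen after seeing the data were 3 further settings. Without neutrophils the counts were 7, 4, 1, 1, 3 and 0, with falls alone in monocytes, basophils and dendritic cells, and the neutrophil comparison has no value. Requiring 5 Mcpt8 UMIs gave 15 T calls and 4 basophil falls, where 880 of 6126 genes rose in T cells and 248 fell in basophils. Without tumour-marker cells there were 21 tumour calls, 2 basophil calls and 1 dendritic call. In that setting 1788 of 5893 genes rose in tumour cells. Leaving out a replicate allows no test, and the numbers past the fold were 20 to 25, 25 to 29, 20 to 23, 61 to 79, 16 to 16, 12 to 19 and 18 to 28. Without replicate 1 the tumour median of the nuclear members was 0.65 and that of all genes 0.54. Without replicate 2 they were 0.57 and 0.49. The cause of the shifts between settings was not tested. The log2 genome ratio, tumour minus immune, moved from -0.16 to -0.048 at a cap of 10%, -0.19 with 5 Mcpt8 UMIs and -0.20 without tumour-marker cells; leaving out a replicate gave -0.13 to -0.18. Of the alternatives for 57 named results, 625 kept direction and side of the threshold, 187 lost the call and 5 reversed. The 625 include 57 without a fold minimum, where no call could be lost. They also include 50 without replicate 1 and 47 without replicate 2, judged by the fold alone. With cells of several gates kept, 4 kept the call, 50 lost it and 3 reversed. Without neutrophils 7 kept it, 29 lost it and 2 reversed. The reversals were Ndufa11 in dendritic cells (-0.34 with several gates, -0.018 without neutrophils), Ndufa11 (-0.11 without neutrophils) and Ndufa12 (-0.11 with several gates) in macrophages/microglia, and Ndufa12 in T cells (-0.15 with several gates). Neutrophil depth limits every fold against that class.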

Other observations

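Barcodes outside the classes carried the same genes in other proportions. The removed barcodes (964 and 820, median 1703 and 1849 UMIs) had 48.1% and 47.1% of their UMIs from mitochondrial members and 0.534% and 0.507% from nuclear ones, the latter being 1.03% and 0.957% of UMIs outside the mitochondrial members. Kept cells that met no gate (206 and 125) had 2.20% and 2.20% nuclear and 4.16% and 3.90% mitochondrial member UMIs. Cells that met several gates (131 and 106) had 2.19% and 2.20% nuclear and 3.46% and 3.65% mitochondrial member UMIs.

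From cell to cell the genomes varied loosely together. In tumour cells thinned to 10000 UMIs (954 and 798 cells used), Spearman's rho between nuclear and mitochondrial member shares was 0.34 and 0.29, and in macrophages/microglia thinned to 3000 UMIs (202 and 185 cells used) it was 0.23 and 0.19. Both shares come from the same thinned total, and cells of a library are not replicates, so these are descriptions.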
